A study of Rattus norvegicus with 24 samples.

Results

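The Trim genes encode tripartite motif proteins, and 35 of them were measured among the 14217 genes named on the array. Members were taken by symbol, as every annotated gene called Trim followed by a number and, where present, 1 letter. Where several probe sets read a gene, the one of highest mean across the 24 arrays stood for it. The 35 genes had 47 probe sets, and 10 of them had more than 1. RefSeq lists 59 rat symbols of this form, so members such as Trim21, which has no named probe set in the annotation used here, were not analysed. The cells were rat INS-1E, an insulinoma line that makes insulin and is used as a model of the pancreatic beta cell. BRD0476 is a small molecule known for protecting beta cells from death caused by inflammatory cytokines, and the design asks how it alters the transcriptional response to them. The 8 groups of 3 arrays were cytokines with 10 uM BRD0476, cytokines with the vehicle DMSO, BRD0476 alone and DMSO alone, each at 6 h and at 12 h. The cytokine mixture held IL-1b at 10 ng/ml, IFN-g at 50 ng/ml and TNF-a at 25 ng/ml. All groups shared the same line and RPMI medium; the labels name pancreatic islets as the tissue, but all arrays are of this line.

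Most TRIM proteins are ubiquitin ligases built from a RING finger, B-box domains and a coiled coil, followed by a variable C-terminal domain that selects the target. Many members with a C-terminal PRY-SPRY domain are induced by interferons and act in antiviral defence, either on viral components or on the sensors that detect foreign nucleic acids. Other branches of the family act in chromatin repression, on microtubules, in neurons and in striated muscle.

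Values are log2 of the deposited robust multi-array average (RMA) intensities. Array medians lay between 5.49 and 5.57, and replicate arrays had a Pearson r of 0.992 to 0.998 with each other, across probe sets. A gene was called when its adjusted p in a limma fit across all 14217 genes was under 0.05. The labels do not say whether the 3 arrays of a group came from separate cultures, so p-values reflect only how far these arrays spread, which may be technical. Of 11 measured beta-cell markers, Ins1 (mean 14.54), Iapp (13.88) and Slc2a2 (13.20) were high on every array. Nkx6-1 had the lowest mean (8.38) and ran between 6.9 and 9.5 across arrays, and Pdx1 ran between 9.94 and 11.19. The lower quartile of all probe set values was 3.84. Of 7 leukocyte markers, Ptprc (3.71), Itgam (3.78) and Adgre1 (2.87) had means under it, and the other 4 ran from 3.87 to 4.72. Of 6 fibroblast markers, Col1a2, Col3a1, Dcn and Lum had means under it, whereas Col1a1 (4.41) and Pdgfra (6.03) did not. Of 3 endothelial markers, Pecam1 (3.28) did, whereas Vwf (4.57) and Kdr (5.60) did not. Of 4 markers of other islet endocrine cells, Sst (3.76) did, whereas Ghrl (3.92), Ppy (4.19) and Gcg (10.14), the glucagon gene of alpha cells, did not.

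The summed intensity of the leukocyte markers lay between 99.3 and 129.5 on all arrays, but 3 other lists were lower with cytokines and DMSO. At 6 h the fibroblast sum lay between 126.8 and 137.9 with cytokines and BRD0476, between 91.4 and 106.4 with cytokines and DMSO, and between 150.3 and 178.0 with DMSO alone. The endothelial sum lay between 85.8 and 95, between 47.1 and 55.7, and between 77.1 and 99.7 in the same 3 groups. The sum of the other endocrine markers lay between 1182.7 and 1231.1, between 655.6 and 715.4, and between 1177.0 and 1438.2. No 6 h array with cytokines and DMSO overlapped the other groups in these sums. At 12 h, in the same groups, the fibroblast sum lay between 121.5 and 127.5, between 95.8 and 102.7, and between 137.3 and 163.3, and the endothelial sum between 99.2 and 103.0, between 57.0 and 66.4, and between 113.5 and 118.2. The 12 h endocrine sums with cytokines overlapped, between 996.3 and 1228.6 with BRD0476 and between 925.5 and 1103.2 with DMSO, and lay between 1243.1 and 1449.0 with DMSO alone. The part of these markers in the results was not tested. Pdgfra (6.03), Kdr (5.60) and Gcg (10.14) had the highest means of these lists, so each linear sum can follow a single gene. All arrays are of the same line, and the sums do not count cells. In bulk RNA, fewer cells of a type and less RNA per cell cannot be told apart.

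Intensities depend on the probes of each set, so levels were not compared between genes. Mean values of members ran between 3.16 for Trim54 and 10.85 for Trim35, and 4 members (Trim54, Trim6, Trim63 and Trim29) had means under the lower quartile. The files carry no detection calls, so a change measured close to that quartile is best read as a lower bound. The spread of the 8 group means differed widely between members: Trim6 kept within 3.28 and 3.41, while Trim30d ranged between 4.49 and 9.12. Over the 13 comparisons, 29 members were called at least once, and Trim2, Trim6, Trim16, Trim29, Trim47 and Trim63 in none. The share of all genes called at least once was not counted, but 51.7% were called with cytokines in DMSO at 6 h alone.

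**Figure D1:**
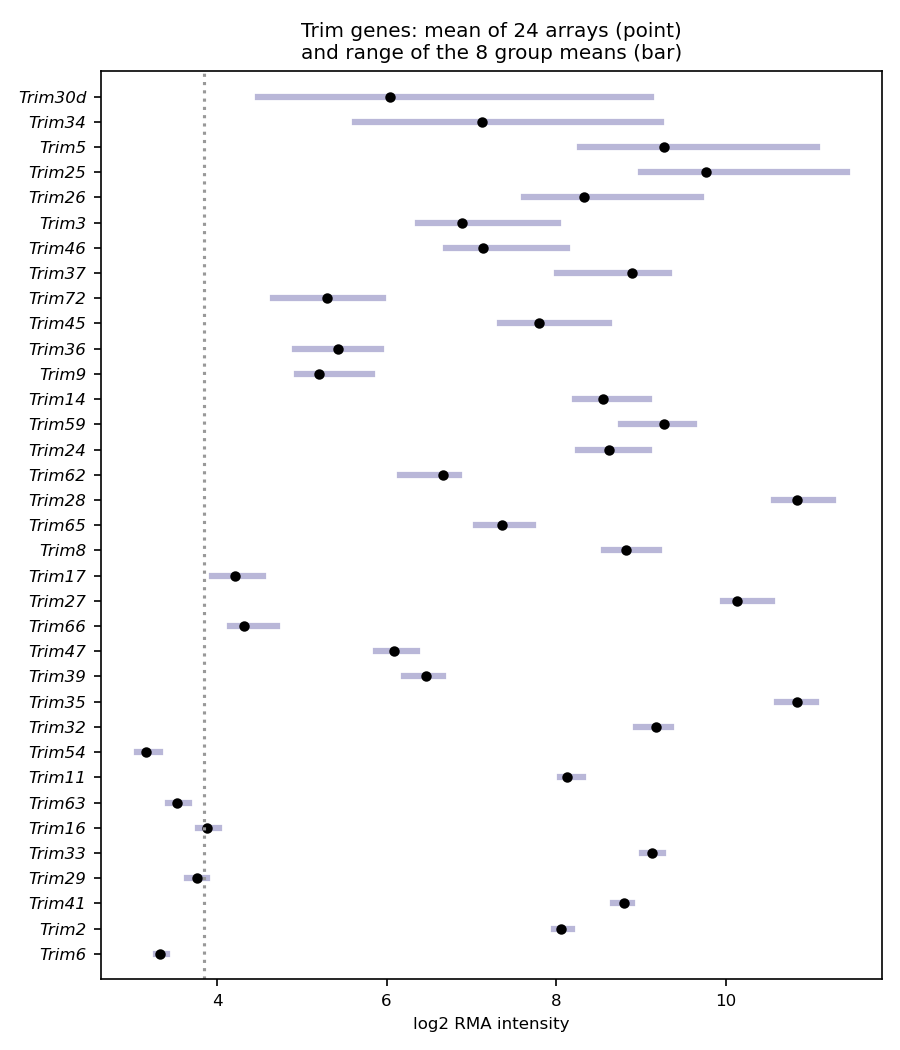
Log2 RMA intensity of the 35 Trim genes. Points are means over 24 arrays, bars span the lowest to the highest of the 8 group means, genes are ordered by that span, and the dotted line marks the lower quartile of all probe set values (3.84). Trim30d and Trim34 have the widest spans, and Trim6 keeps within 3.28 and 3.41.

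Cytokines against no cytokines in DMSO tested the response of the family to inflammatory signals. At 6 h, 15 of 35 members rose and 7 fell, against 24.3% of all genes up and 27.4% down, or 51.7% in either direction. The median change of the members was 0.21 on the log2 scale, against 0.00 over all genes. At 12 h, 10 rose and 8 fell, beside 16% of all genes up, 29.9% down and 45.9% in either direction, with medians of 0.02 for the members and -0.04 for all genes. Called changes of at least 1 on the log2 scale were seen in 7 members upward and 2 downward at 6 h, where 11.3% of all genes passed in either direction, and in 6 upward and 1 downward at 12 h, where 7.83% of all genes did. At both times 9 members rose and 4 fell, and 0 were called in opposite directions. The matching shares of all genes were not counted. The 3 arrays with cytokines lay entirely above those without in 16 members and entirely below in 7 at 6 h, against 53.3% of all genes in either direction; at 12 h these counts were 13 and 8, against 53.1%. The smallest two-sided p of an exact permutation test at this size is 0.1, and calls were therefore made by the model alone.

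**Figure D2:**
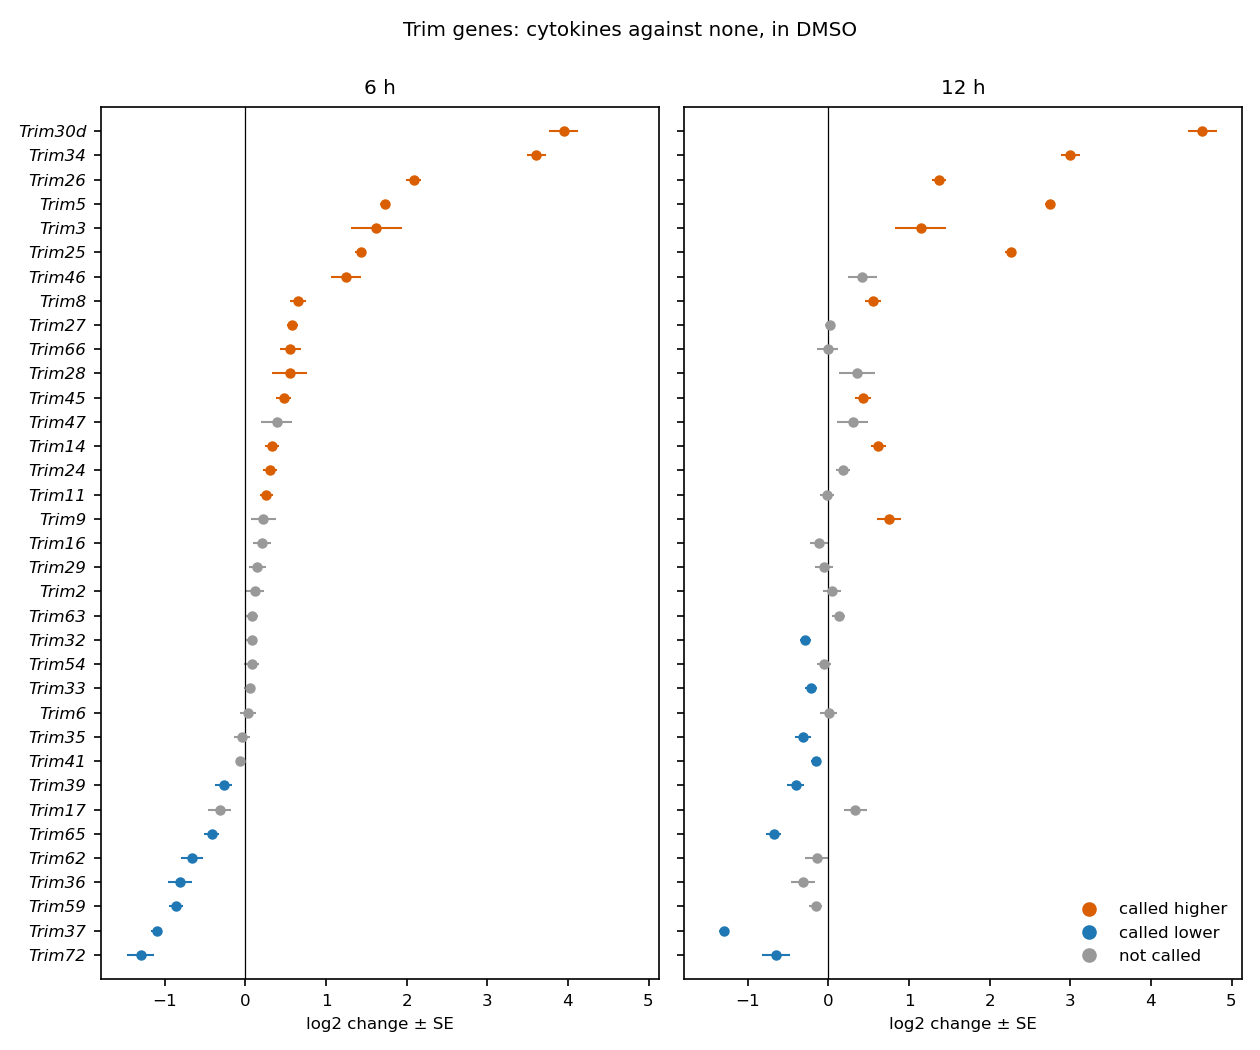
Log2 change ± SE of the 35 Trim genes with cytokines against none, both in DMSO, at 6 h (left) and 12 h (right), 3 arrays a group. Orange and blue mark genes called higher and lower at an adjusted p under 0.05, grey those not called. Trim30d and Trim34 lie farthest to the right at both times (3.95 and 3.61 at 6 h), and Trim37 and Trim72 are the lowest at 6 h (-1.10 and -1.30).

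Of the 11 measured members linked to innate immunity or interferon, 8 rose and 1 fell at 6 h, and 7 rose and 2 fell at 12 h, with median log2 changes of 0.65 and 0.62. Trim30d, Trim34 and Trim5 lie in a cluster on rat chromosome 1, in the order Trim6, Trim34, Trim5, Trim30c and Trim30d in the GRCr8 assembly; Trim30c was not measured. Near-identical copies within such a cluster could share hybridization signal, and this was not tested.

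Trim30d belongs to a rodent branch of the family whose mouse member Trim30a restrains NF-κB and inflammasome signalling. At 6 h it read 8.56, 8.39 and 8.42 with cytokines, against 4.28, 4.26 and 4.97 without. At 12 h the values were 9.22, 9.02 and 9.14 with cytokines and 4.50, 4.54 and 4.42 without. The groups were far apart at both times: the gene was 15.4-fold higher at 6 h (log2 change 3.95 ± 0.18, SE; adjusted p = 7.76e-14) and 24.9-fold higher at 12 h (4.64 ± 0.18; adjusted p = 6.07e-15). Without cytokines it lay close to the lower quartile.

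Trim34, a close relative of Trim5, read 9.31, 9.30 and 9.12 with cytokines at 6 h, against 5.31, 5.91 and 5.67 without. By 12 h the arrays read 9.09, 8.98 and 8.89 with cytokines and 5.96, 5.99 and 6.00 without. Every array with cytokines was above every array without, by 12.2-fold at 6 h (log2 change 3.61 ± 0.12; adjusted p = 3.48e-16) and 8.01-fold at 12 h (3.0 ± 0.12; adjusted p = 8.34e-15). Trim5, whose primate counterpart blocks retroviral capsids, read 9.90, 10.08 and 10.04 with cytokines at 6 h, against 8.25, 8.28 and 8.30 without. Its values at 12 h were 11.00, 11.08 and 11.15 with cytokines and 8.31, 8.36 and 8.32 without. The groups did not overlap, and replicates differed little: the log2 change was 1.73 ± 0.06 at 6 h (adjusted p = 9.93e-16) and 2.75 ± 0.06 at 12 h (adjusted p = 6.47e-19). Trim6, at the other end of the cluster, had changes of 0.04 at 6 h and 0.0034 at 12 h that were not called, and its group means lay under the lower quartile.

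Trim25, the ligase that modifies the RNA sensor RIG-I, read 10.50, 10.43 and 10.36 with cytokines at 6 h, against 9.07, 9.05 and 8.89 without. In the 12 h arrays the values were 11.49, 11.36 and 11.43 with cytokines and 9.17, 9.11 and 9.23 without. The rise was 1.43 ± 0.07 on the log2 scale at 6 h (adjusted p = 1.83e-13) and 2.26 ± 0.07 at 12 h (adjusted p = 9.66e-17), with no overlap between groups. Trim26, a ligase that acts on the interferon regulatory factor IRF3 in human and mouse cells, read 9.85, 9.70 and 9.58 with cytokines at 6 h, against 7.50, 7.72 and 7.65 without. The arrays at 12 h read 9.15, 9.27 and 8.89 with cytokines and 7.78, 7.67 and 7.73 without. All arrays with cytokines were higher, by 2.09 ± 0.09 at 6 h (adjusted p = 3.71e-14) and 1.38 ± 0.09 at 12 h (adjusted p = 4.73e-11). A second Trim26 probe set rose too, by 1.48 and 1.36.

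Smaller changes were called in the other innate members. Trim14, a mitochondrial adaptor of antiviral signalling, rose by 0.33 ± 0.09 at 6 h and 0.62 ± 0.09 at 12 h (adjusted p = 0.00413 and 7.3e-06). Trim8, known for promoting NF-κB activation by TNF and IL-1, rose by 0.65 ± 0.10 and 0.55 ± 0.10 (adjusted p = 8.16e-06 and 7.64e-05). Trim27, a transcriptional repressor, rose by 0.58 ± 0.07 at 6 h (adjusted p = 2.44e-07) and had a change of 0.02 at 12 h that was not called. Trim65, a ligase of the RNA sensor MDA5, fell by 0.42 ± 0.09 at 6 h and by 0.68 ± 0.09 at 12 h (adjusted p = 0.000696 and 3.73e-06). Trim35 was called lower at 12 h (-0.32, adjusted p = 0.012), but the change was -0.19 (adjusted p = 0.104) without the third cytokine and DMSO array.

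To show the sequence beside the values, the promoter windows of the RefSeq table (GRCr8, 250 bases before to 50 after each start) were searched for the core letters of 2 interferon elements. The core of the interferon-stimulated response element was taken as GAAA, any 2 bases and GAAA, or TTTC, any 2 bases and TTTC on the other strand. That of the gamma-activated site was TTCNNNGAA, which reads the same on both strands. Of the 35 members, 29 had a window. The first pattern was found in 2 of 29 members (6.897%), Trim34 and Trim26, against 1131 of 27457 promoters (4.119%) and 376 of the 11700 promoters of genes measured here (3.214%). The second was found in 0 of 29 members, against 2577 of 27457 promoters (9.386%). Both stretches are shown on the gene's own strand, with 2 overlapping matches in capitals. In Trim34 the match lies 10 to 25 bases past the start (chr1:168119008-168119071, plus strand), and in Trim26 it lies 198 to 183 bases before it (chr20:1736449-1736554, minus strand).
Trim34: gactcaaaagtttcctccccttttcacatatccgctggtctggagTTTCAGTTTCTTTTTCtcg
Trim26: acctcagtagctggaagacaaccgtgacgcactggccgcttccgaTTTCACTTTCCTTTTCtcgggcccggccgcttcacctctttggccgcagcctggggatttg
A match is a description of the letters in this window. Trim30d, Trim5 and Trim25, which also rose, had no match in theirs, while Trim14 had no window in the table.

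Trim3, a neuron-enriched ligase of the NHL-repeat branch, and Trim46, which organizes microtubules in the axon, also rose, with 1 cytokine array standing apart at each time. Trim3 read 8.39, 8.50 and 7.18 with cytokines at 6 h, against 6.46, 6.33 and 6.40 without. The 12 h values were 7.97, 8.05 and 6.69 with cytokines and 6.42, 6.38 and 6.47 without. The array numbered 3 was the lowest of its group both times, although it still lay above all arrays without cytokines. The change was 1.62 ± 0.32 at 6 h (adjusted p = 0.000175) and 1.14 ± 0.32 at 12 h (adjusted p = 0.00523). Trim46 read 8.33, 8.42 and 7.63 with cytokines at 6 h, against 6.92, 6.75 and 6.98 without, a rise of 1.25 ± 0.18 (adjusted p = 6.82e-06). Its values at 12 h were 7.70, 7.52 and 7.09 with cytokines and 6.90, 7.09 and 7.04 without, and the difference of 0.42 ± 0.18 was not called (adjusted p = 0.0689). With both arrays numbered 3 left out, the changes were 2.05 and 1.59 for Trim3 and 1.49 and 0.59 for Trim46, and all 4 were called. These arrays were chosen after seeing the data. Leaving out the lowest array of a cytokine group can only raise its change, so these calls are no independent check.

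Of the 4 members of the chromatin and transcription class, 3 rose at 6 h and 0 fell, while at 12 h 0 rose and 1 fell. Trim24, a co-regulator of nuclear receptors, rose by 0.31 ± 0.09 at 6 h (adjusted p = 0.00503) and Trim66 by 0.56 ± 0.13 (adjusted p = 0.00124). Trim28, the KRAB zinc finger co-repressor also known as KAP1, read 11.53, 11.44 and 10.60 with cytokines at 6 h, against 10.72, 10.59 and 10.60 without. By 12 h the arrays read 11.31, 11.23 and 10.41 with cytokines and 10.60, 10.55 and 10.75 without. Again the array numbered 3 was low and overlapped the values without cytokines. The 6 h rise of 0.55 ± 0.22 (adjusted p = 0.0397) was no longer called when any of 5 of the 6 arrays was left out, with changes down to 0.38 (adjusted p = 0.198), and it was 0.85 (adjusted p = 0.00121) without that array. The 12 h difference of 0.35 was not called, and became 0.64 (adjusted p = 0.0131) without the third cytokine array. Trim33, which acts in TGF-beta signalling, was called lower at 12 h (-0.21, adjusted p = 0.0181), but not without the second cytokine array, where the change was -0.14 (adjusted p = 0.139).

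Among the 11 members grouped in no role list, 2 rose and 4 fell at 6 h, and 1 rose and 3 fell at 12 h. Trim37, a centrosome-linked ligase mutated in mulibrey nanism, read 8.08, 8.14 and 8.10 with cytokines at 6 h, against 9.24, 9.16 and 9.22 without. In the 12 h arrays the values were 8.09, 7.98 and 7.95 with cytokines and 9.23, 9.37 and 9.31 without. Every array with cytokines was lower, and the gene fell by 1.10 ± 0.06 on the log2 scale at 6 h (adjusted p = 5.74e-12) and by 1.29 ± 0.06 at 12 h (adjusted p = 5.04e-13). A second Trim37 probe set fell by 0.36 and 0.47. Trim59 fell by 0.86 ± 0.09 at 6 h (adjusted p = 2.41e-08) and Trim62, a regulator of epithelial polarity, by 0.66 ± 0.14 (adjusted p = 0.000367); their 12 h differences of -0.16 and -0.15 were not called. Trim39 fell by 0.41 ± 0.11 at 12 h (adjusted p = 0.00406), and its 6 h change of -0.27 (adjusted p = 0.043) was -0.17 (adjusted p = 0.231) without the second DMSO array. That 6 h call was also lost without the first DMSO array or the first or second cytokine array, and with quantile normalization (adjusted p = 0.0787). Trim45, a repressor of Elk1- and AP-1-dependent transcription, rose by 0.48 ± 0.10 and 0.43 ± 0.10 (adjusted p = 0.000233 and 0.000843).

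In the remaining classes, Trim72, a membrane-repair protein of striated muscle, read 4.97, 4.29 and 4.73 with cytokines at 6 h, against 5.88, 6.39 and 5.61 without. The arrays at 12 h read 5.10, 4.58 and 4.73 with cytokines and 5.42, 5.41 and 5.51 without. It fell by 1.30 ± 0.17 at 6 h (adjusted p = 1.66e-06) and by 0.64 ± 0.17 at 12 h (adjusted p = 0.00414), with no overlap. Of 5 skeletal muscle markers, Myh2 and Tnnt3 had means under the lower quartile while Myh1 read 11.47. Their summed intensity, to which Myh1 gave the most, lay between 3131.6 and 5181.7 with cytokines and between 2708.1 and 3434.0 without at 6 h. The part of these markers in the result was not tested. The sarcomere-associated ligases Trim54 and Trim63 had no called cytokine change. Trim36 fell by 0.81 ± 0.15 at 6 h (adjusted p = 9.4e-05), Trim9, which acts in axon branching, rose by 0.75 ± 0.15 at 12 h (adjusted p = 0.00032), and Trim32, a muscle-dystrophy ligase, fell by 0.28 ± 0.07 at 12 h (adjusted p = 0.00264). A second Trim9 probe set, with a mean of 3.915, had a 12 h change of 0.02 that was not called.

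**Figure D3:**
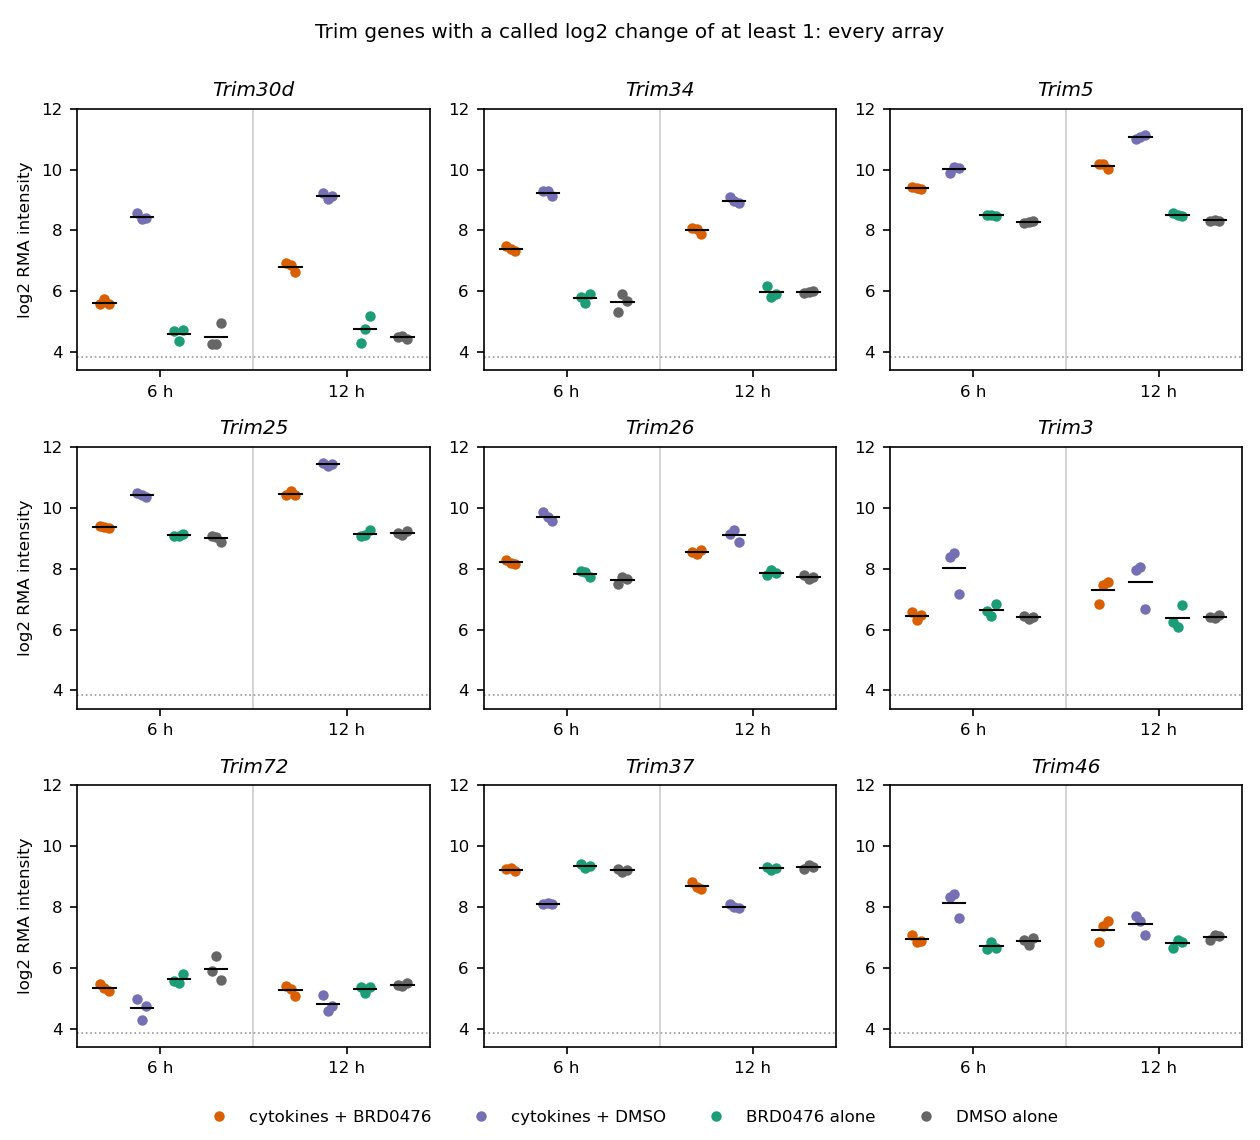
Log2 RMA intensity in every array (points, 3 a group) and group mean (bars) of the 9 Trim genes called with a log2 change of at least 1, at 6 h and 12 h. Colours mark cytokines with BRD0476, cytokines with DMSO, BRD0476 alone and DMSO alone, and the dotted line is the lower quartile of all probe set values (3.84). In Trim30d the cytokine and BRD0476 arrays (5.57 to 5.74 at 6 h) lie between the cytokine and DMSO arrays (8.39 to 8.56) and those without cytokines.

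BRD0476 against DMSO, both with cytokines, asked whether the compound altered this response. At 6 h, 6 of 35 members were higher and 14 lower with BRD0476, beside 24.7% of all genes higher, 19.4% lower and 44% in either direction. At 12 h, 5 were higher and 8 lower, beside 16.3%, 10.6% and 26.9% of all genes. The median change was -0.19 at 6 h and -0.03 at 12 h, against 0.00 and 0.04 over all genes. Changes of at least 1 were called in 1 member upward and 6 downward at 6 h, where 5.6% of all genes passed, and in 1 downward at 12 h, where 3.16% did. The BRD0476 arrays lay entirely above the DMSO arrays in 6 members and entirely below in 16 at 6 h (50.2% of all genes in either direction), and in 4 and 10 at 12 h (35.3%). These comparisons share the cytokine and DMSO arrays with those above, so the signs in the 2 sets of comparisons are not independent.

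**Figure D4:**
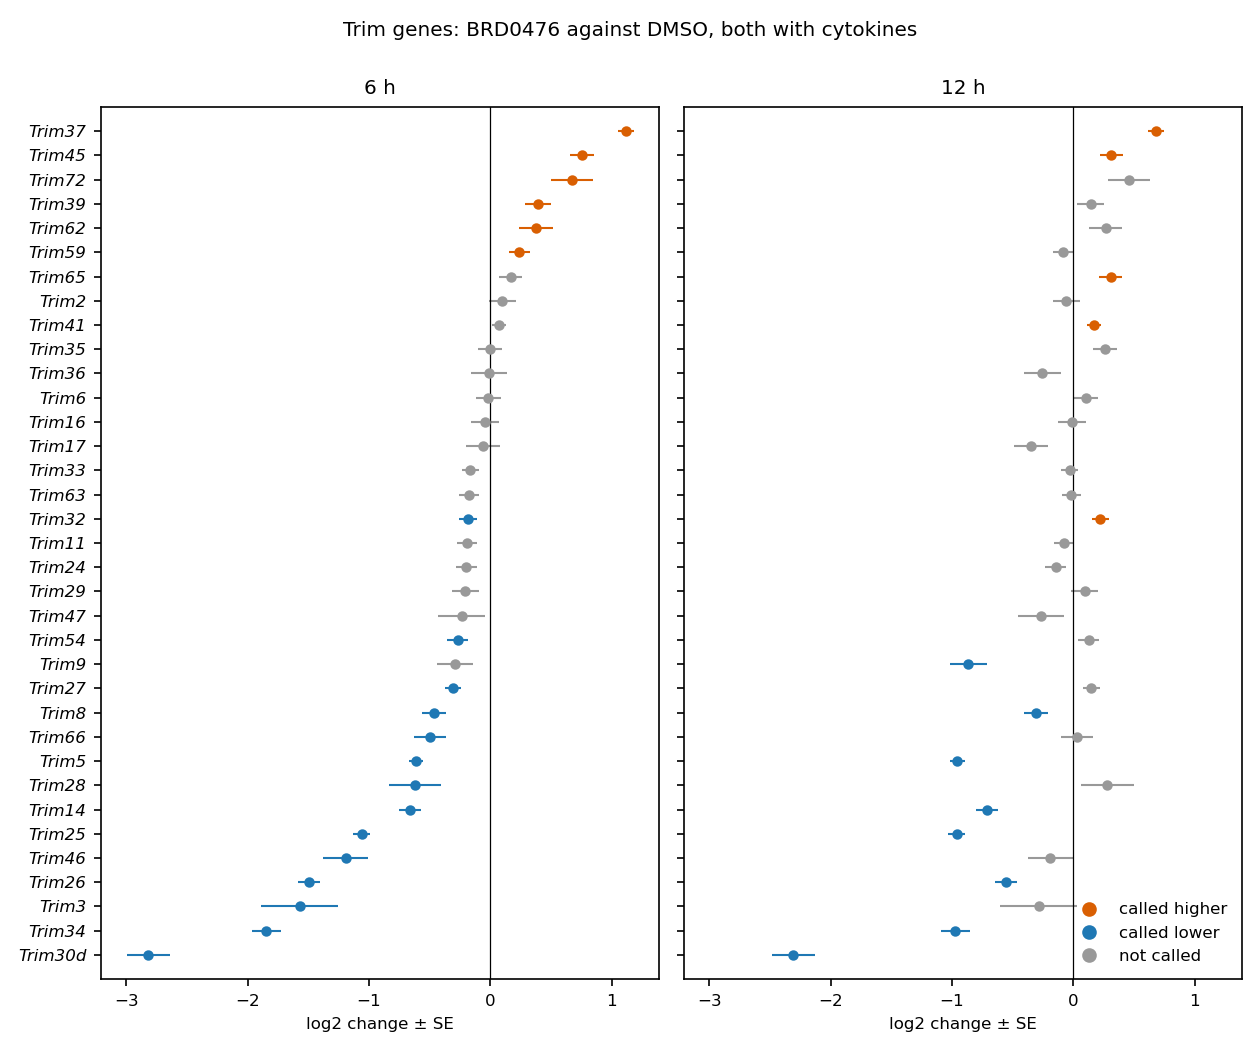
Log2 change ± SE of the 35 Trim genes with BRD0476 against DMSO, both with cytokines, at 6 h (left) and 12 h (right), 3 arrays a group. Orange and blue mark genes called higher and lower at an adjusted p under 0.05, grey those not called. Trim30d lies lowest at both times (-2.82 and -2.31), and Trim37 highest (1.12 and 0.68).

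Of the 11 innate members, 0 were higher and 8 lower with BRD0476 at 6 h, and 1 was higher and 7 lower at 12 h, with median changes of -0.61 and -0.55. Trim30d read 5.59, 5.74 and 5.57 with cytokines and BRD0476 at 6 h, against 8.56, 8.39 and 8.42 with cytokines and DMSO. The 12 h values were 6.92, 6.88 and 6.65 with BRD0476 and 9.22, 9.02 and 9.14 with DMSO. It was lower on every BRD0476 array, with log2 differences of -2.82 ± 0.18 at 6 h (adjusted p = 5.43e-11) and -2.31 ± 0.18 at 12 h (adjusted p = 2.05e-09). The cytokine change with BRD0476 present was 1.03 at 6 h and 2.06 at 12 h, which is 26.2% and 44.5% of the log2 change in DMSO.

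Trim34 read 7.50, 7.38 and 7.31 with cytokines and BRD0476 at 6 h, against 9.31, 9.30 and 9.12 with cytokines and DMSO. By 12 h the arrays read 8.08, 8.05 and 7.90 with BRD0476 and 9.09, 8.98 and 8.89 with DMSO. All BRD0476 arrays were lower, and the difference was -1.85 ± 0.12 at 6 h (adjusted p = 6.16e-11) and -0.97 ± 0.12 at 12 h (adjusted p = 1.46e-06). Trim5 read 9.42, 9.39 and 9.37 with BRD0476 at 6 h, against 9.90, 10.08 and 10.04 with DMSO. In the 12 h arrays the values were 10.17, 10.18 and 10.01 with BRD0476 and 11.00, 11.08 and 11.15 with DMSO. The difference was -0.61 ± 0.06 at 6 h (adjusted p = 3.98e-08) and -0.96 ± 0.06 at 12 h (adjusted p = 9.37e-11), with no overlap.

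Trim25 read 9.40, 9.38 and 9.33 with BRD0476 at 6 h, against 10.50, 10.43 and 10.36 with DMSO. The arrays at 12 h read 10.43, 10.55 and 10.41 with BRD0476 and 11.49, 11.36 and 11.43 with DMSO. Each BRD0476 array was about 1 unit lower, with differences of -1.06 ± 0.07 (adjusted p = 6.87e-11) and -0.96 ± 0.07 (adjusted p = 5.24e-10). Trim26 read 8.30, 8.20 and 8.15 with BRD0476 at 6 h, against 9.85, 9.70 and 9.58 with DMSO. The 12 h values were 8.55, 8.48 and 8.62 with BRD0476 and 9.15, 9.27 and 8.89 with DMSO. The groups did not overlap, and the differences were -1.49 ± 0.09 (adjusted p = 2.66e-11) and -0.55 ± 0.09 (adjusted p = 6.58e-05). At 6 h the cytokine change with BRD0476 was 18.9% of that with DMSO for Trim25 and 18.0% for Trim26 on the log2 scale, whereas it was 51.8% for Trim5 and 44.8% for Trim34. At 12 h it was 57.9% for Trim25, 49.7% for Trim26, 58.0% for Trim5 and 68.2% for Trim34.

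Trim14 was lower with BRD0476 by 0.66 ± 0.09 at 6 h and 0.71 ± 0.09 at 12 h (adjusted p = 3.78e-06 and 3.12e-06). Without cytokines its mean was 8.405 with BRD0476 and 8.627 with DMSO at 6 h, and 8.221 and 8.474 at 12 h, differences that were not called. Trim8 was lower by 0.46 ± 0.10 at 6 h (adjusted p = 0.000522); its 12 h change of -0.31 (adjusted p = 0.0239) was not called without any of 3 of the 6 arrays, and was -0.24 (adjusted p = 0.113) without the first cytokine and DMSO array. Trim27 was lower by 0.31 ± 0.07 at 6 h (adjusted p = 0.0008). Trim65, which had fallen with cytokines, was called higher with BRD0476 at 12 h (0.31, adjusted p = 0.0179), but not without the second cytokine and DMSO array (0.23, adjusted p = 0.11) or the third cytokine and BRD0476 array.

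Trim3 read 6.56, 6.31 and 6.48 with cytokines and BRD0476 at 6 h, against 8.39, 8.50 and 7.18 with DMSO, a difference of -1.57 ± 0.32 (adjusted p = 0.000333). By 12 h the arrays read 6.83, 7.47 and 7.55 with BRD0476 and 7.97, 8.05 and 6.69 with DMSO. The 12 h groups overlapped, and the difference of -0.28 was not called (adjusted p = 0.585). It was -0.73 and still not called (adjusted p = 0.0703) without the third cytokine and DMSO array of 12 h. With that of 6 h also left out, chosen after seeing the data, the difference was the same but was called (adjusted p = 0.00675). Without the second cytokine and DMSO array it was -0.04 (adjusted p = 0.948). Trim46 read 7.06, 6.85 and 6.89 with BRD0476 at 6 h, against 8.33, 8.42 and 7.63 with DMSO, a difference of -1.19 ± 0.18 (adjusted p = 1.79e-05). In the 12 h arrays the values were 6.83, 7.36 and 7.54 with BRD0476 and 7.70, 7.52 and 7.09 with DMSO, which overlapped and were not called apart (-0.19, adjusted p = 0.52). Without the first BRD0476 array this difference was 0.016 (adjusted p = 0.967). Trim28 was called lower at 6 h (-0.62 ± 0.22, adjusted p = 0.0253), a call lost without any of 4 of the 6 arrays, with changes as small as -0.45 (adjusted p = 0.141). Its 12 h difference of 0.28 was not called, and was -0.01 without the third cytokine and DMSO array. Trim66 was lower at 6 h (-0.49 ± 0.13, adjusted p = 0.00431).

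Trim37 moved the other way. It read 9.23, 9.27 and 9.17 with cytokines and BRD0476 at 6 h, against 8.08, 8.14 and 8.10 with cytokines and DMSO. The arrays at 12 h read 8.83, 8.64 and 8.60 with BRD0476 and 8.09, 7.98 and 7.95 with DMSO. Every BRD0476 array was higher, by 1.12 ± 0.06 at 6 h (adjusted p = 1.28e-11) and 0.68 ± 0.06 at 12 h (adjusted p = 4.39e-08), and at 6 h its values fell within the range of the groups without cytokines (9.16 to 9.40). The second Trim37 probe set was higher at 6 h (0.61) and not called at 12 h (0.20).

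Trim72 read 5.45, 5.33 and 5.22 with BRD0476 at 6 h, against 4.97, 4.29 and 4.73 with DMSO, a difference of 0.67 ± 0.17 (adjusted p = 0.00306) with no overlap. The 12 h values were 5.40, 5.29 and 5.08 with BRD0476 and 5.10, 4.58 and 4.73 with DMSO, which overlapped slightly and were not called apart (0.46 ± 0.17, adjusted p = 0.0562), although they were without the first cytokine and DMSO array (0.61, adjusted p = 0.0189). Trim39 was higher at 6 h (0.39 ± 0.11, adjusted p = 0.00516). Trim59 and Trim62 were called higher at 6 h (0.24 and 0.38, adjusted p = 0.0279 and 0.0314), but not without the third cytokine and DMSO array (0.16 and 0.29, adjusted p = 0.157 and 0.131). Both calls were also lost without the second cytokine and BRD0476 array. A second, dim Trim62 probe set was called lower (-0.29), and with the mean of probe sets the Trim62 difference was 0.04 (adjusted p = 0.763).

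Trim45 did not follow the pattern of the other members that rose. It read 8.73, 8.59 and 8.53 with cytokines and BRD0476 at 6 h, against 7.85, 7.64 and 8.10 with cytokines and DMSO and 7.34, 7.39 and 7.44 with DMSO alone. The cytokine and BRD0476 arrays were the highest of the 6 h groups. BRD0476 added 0.76 ± 0.10 to the cytokine value (adjusted p = 1.26e-06), and the interaction of BRD0476 with cytokines was 0.52 ± 0.13 (adjusted p = 0.0048). By 12 h the arrays read 8.20, 8.0 and 8.04 with BRD0476 and 7.68, 7.73 and 7.90 with DMSO. This change of 0.31 (adjusted p = 0.0175) was lost without any of 3 of the 6 arrays, down to 0.25 (adjusted p = 0.0915). BRD0476 alone read 7.66, 7.71 and 7.5 at 6 h, and 7.71, 7.73 and 7.57 at 12 h. DMSO alone read 7.37, 7.31 and 7.35 at 12 h. These groups without cytokines did not overlap at either time, but their differences were not called. The 12 h interaction was not called, so the 12 h change is not shown to depend on cytokines. Trim9 read 4.74, 4.96 and 5.17 with cytokines and BRD0476 at 12 h, against 5.97, 5.79 and 5.71 with cytokines and DMSO and 5.07, 4.88 and 5.27 with DMSO alone. It was lower with BRD0476 by 0.86 ± 0.15 (adjusted p = 0.000156), and its second probe set by 0.31.

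BRD0476 without cytokines asked what the compound did to the family on its own. At 6 h, Trim5 was called higher (0.22 ± 0.06, adjusted p = 0.0435) and Trim24 lower (-0.33 ± 0.09, adjusted p = 0.0369), that is 2 of 35 members beside 1.68% of all genes higher, 1.85% lower and 3.53% in either direction. Trim5 read 8.50, 8.52 and 8.48 with BRD0476 and 8.25, 8.28 and 8.30 with DMSO, and Trim24 read 8.49, 8.33 and 8.54 with BRD0476 and 8.74, 8.72 and 8.89 with DMSO. Neither pair of groups overlapped, as was so for 20.5% of all genes, but with 1 array left out in turn only 0 or 1 members were called. At 12 h, 0 of 35 were called by limma, where 2.02% of all genes were higher, 2.64% lower and 4.66% called in either direction. An unadjusted limma p under 0.05 was found in 6 members at 6 h and in 5 at 12 h. The share of all genes at that threshold was not counted, so these 2 counts cannot be weighed. Trim5 had a similar but uncalled difference at 12 h (0.20, adjusted p = 0.0692). Between 12 h and 6 h in untreated DMSO cells, 1 member was called beside 0.464% of all genes higher, 1.21% lower and 1.67% in either direction: Trim24 was lower at 12 h (8.44, 8.48 and 8.4) than at 6 h (8.74, 8.72 and 8.89), by -0.35 ± 0.09 (adjusted p = 0.0454).

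The interaction term tests whether the BRD0476 effect with cytokines differed from its effect without them. It was called in 5 members upward and 11 downward at 6 h, where 18.8% of all genes were called upward, 14.4% downward and 33.2% in all, and in 2 upward and 8 downward at 12 h, where 8.38%, 6.89% and 15.3% were. The downward terms at 6 h included Trim30d (-2.91), Trim34 (-1.99), Trim3 (-1.80), Trim26 (-1.71), Trim25 (-1.16), Trim46 (-1.01) and Trim5 (-0.83), and the upward ones Trim72 (1.01) and Trim37 (0.99). At 12 h the terms were -2.57 for Trim30d, -1.15 for Trim5, -1.13 for Trim9, -0.95 for both Trim34 and Trim25, -0.69 for Trim26 and 0.72 for Trim37. The terms of Trim3 (-0.23), Trim46 (0.02) and Trim72 (0.61) were not called at 12 h.

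With BRD0476 present, cytokines against none still raised 8 members and lowered 1 at 6 h, where 10.3% of all genes rose, 10.7% fell and 20.9% were called in all, and raised 7 and lowered 1 at 12 h, where 9.19%, 18.5% and 27.7% did so. Trim30d, Trim34, Trim5, Trim25 and Trim26 were among those that rose at both times, by 0.27 for Trim25 to 1.62 for Trim34 at 6 h and by 0.68 for Trim26 to 2.06 for Trim30d at 12 h. Trim45 rose by 1.0 at 6 h and 0.41 at 12 h. Trim37 fell by 0.58 at 12 h (adjusted p = 5.71e-07), and its 6 h change of -0.11 was not called.

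The cytokine effect in DMSO at 12 h minus that at 6 h was called in 5 members upward and 6 downward, where 11.8% of all genes were called upward, 16.9% downward and 28.8% in all. Trim5 gained 1.02 ± 0.08 between the times (adjusted p = 1.67e-08) and Trim25 gained 0.83 ± 0.10 (adjusted p = 1.27e-06). Trim26 lost 0.71 ± 0.13 (-0.71, adjusted p = 0.0002) and Trim34 0.61 ± 0.17 (-0.61, adjusted p = 0.00818). In Trim34 the mean with cytokines went from 9.241 at 6 h to 8.983 at 12 h. Its mean without cytokines rose from 5.633 to 5.981, so the difference came from both groups. For Trim26 these means went from 9.709 to 9.104 and from 7.623 to 7.728. The BRD0476 effect with cytokines also differed between times in 9 members upward and 3 downward, where 11.9%, 13.2% and 25% of all genes were. It was -0.55 at 12 h and -1.49 at 6 h for Trim26 (difference 0.94 ± 0.13, adjusted p = 1.43e-05), and -0.97 at 12 h and -1.85 at 6 h for Trim34 (0.87 ± 0.17, adjusted p = 0.000517). In Trim5 it was larger at 12 h (-0.96) than at 6 h (-0.61), a difference of -0.35 ± 0.08 (adjusted p = 0.00441).

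Other genes of the same pathways were read from lists. Of 8 measured TRIM or TRIM-related proteins with other symbols, 3 rose and 0 fell with cytokines in DMSO at 6 h, and 2 rose and 0 fell at 12 h. With BRD0476 added to cytokines, 1 was higher and 1 lower at 6 h, and 0 were higher and 1 lower at 12 h. Pml, the scaffold of nuclear bodies, rose by 1.39 and 2.07 and was lower with BRD0476 by 1.14 and 1.17 at 6 and 12 h. Mid2, a microtubule-binding ligase, rose by 0.94 and 0.65, and Fsd1 by 0.82 at 6 h; neither was called with BRD0476. Bspry was the list member higher with BRD0476 at 6 h, by 0.26. Of 13 PML nuclear body genes, 7 rose and 3 fell at 6 h, and 5 rose and 2 fell at 12 h; 2 were higher and 7 lower with BRD0476 at 6 h, and 1 was higher and 5 lower at 12 h. Among the nuclear body components that rose were Sp110 (2.60 and 2.47), Sp140 (2.16 and 1.96), Sp100 (1.18 and 0.80) and Daxx (1.01 and 1.61).

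Of 14 genes that sense foreign nucleic acids or signal from those sensors, 7 rose and 4 fell with cytokines at each time, and with BRD0476 4 were higher and 8 lower at 6 h and 1 was higher and 6 lower at 12 h. Irf7, a transcription factor for interferon genes, rose by 6.18 and 6.11 and was lower with BRD0476 by 3.0 and 1.63. Sting1, the adaptor of cytosolic DNA sensing, rose by 4.80 and 2.57, and Dhx58, a RIG-I-like receptor, by 3.98 and 4.40. Of 13 E2 enzymes and ubiquitin-like partners of TRIM ligases, 7 rose and 1 fell at 6 h, and 8 rose and 1 fell at 12 h, with 2 higher and 7 lower with BRD0476 at 6 h and 2 higher and 6 lower at 12 h. Isg15, a ubiquitin-like modifier, rose by 7.98 and 8.02, Usp18, the protease that removes it, by 7.21 and 7.14, and Herc6, its ligase in mouse, by 4.72 and 4.16. Shares of all genes called in these comparisons are those given above for the members.

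The other probe sets of members gave 48 results in the cytokine comparisons in DMSO and the BRD0476 comparisons with cytokines. Of these, 12 were called in the same direction as the probe set used, 1 in the opposite direction (Trim62, above) and 6 were not called where the probe set used was. In 1, a second Trim41 probe set at 6 h with cytokines (0.23), a call was made where the probe set used gave none. The second Trim14 probe set rose by 0.49 and 1.04 with cytokines and was lower by 0.92 and 0.91 with BRD0476.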

How the data were processed

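RNA of INS-1E cells was measured on 24 single-colour Affymetrix arrays, 3 in each of 8 groups taken from the sample titles. The deposited intensity values are linear and were made by the authors with RMA, per the submitters' processing notes; RMA corrects background, normalizes across arrays and summarizes probes, and its version and chip definition are not given in the sources used here. The table held 31099 probe sets, of which 57 were controls, 20832 had 1 gene symbol, 436 had several and 9831 no name in the annotation used here. Deposited intensities were taken to log2 without further normalization. A model of 8 group means, with no covariate, was run in limma 3.58.1 (R 4.3.3; lmFit and eBayes, 16 residual and 3.97 prior degrees of freedom), with Benjamini-Hochberg adjustment over the 14217 genes of each of 13 comparisons. The number of arrays limits the precision: the median standard error of a 2-group change was 0.102. The fit was first tested on simulated data. Members called with a change of at least 1 with cytokines in DMSO, or with BRD0476 and cytokines, were named with every array. Of each role list up to 4 others were named, and up to 3 called genes of each pathway list. In the lists of TRIM or TRIM-related proteins with other symbols and of PML nuclear body genes, 1 more gene was named outside this rule. Trim2, Trim6, Trim16, Trim29, Trim47, Trim63 and the members named only for a count, a level, a time difference or a second probe set were named after their values were seen. The members and lists were chosen with earlier results of these data known. Alternatives were a fit of only the arrays compared, a replicate block, a robust prior with an intensity trend, the mean of probe sets, centred arrays, quantile normalization, dim genes left out and each array left out; leaving out both cytokine and DMSO arrays numbered 3 was added after seeing the data.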

Additional observations from a re-analysis of the deposited data

Results flagged for a closer look

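The cytokine effect in DMSO differed between 12 h and 6 h in 11 of 35 members (31.4%), beside 28.8% of all genes. The interaction term is given as the effect at 12 h minus that at 6 h on the log2 scale. It was positive in Trim5 (1.02), Trim25 (0.83), Trim59 (0.70), Trim30d (0.69) and Trim17 (0.65). Trim59 had fallen at 6 h. It was negative in Trim46 (-0.82), Trim26 (-0.71), Trim34 (-0.61), Trim66 (-0.57), Trim27 (-0.56) and Trim32 (-0.36). The calls of Trim30d (adjusted p = 0.045) and Trim46 (adjusted p = 0.0218) were lost when any of 8 and any of 4 of the 12 arrays was left out, down to 0.46 and -0.65, and those of Trim66 and Trim17 when any of 6 and any of 2 was, down to -0.44 and 0.51.

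In 12 of 35 members (34.3%), beside 25% of all genes, the BRD0476 effect with cytokines differed in the same way between the times. The effect at 12 h minus that at 6 h was positive in Trim3 (1.29), Trim46 (1.0), Trim26 (0.94), Trim28 (0.90), Trim34 (0.87), Trim66 (0.52), Trim27 (0.46), Trim32 (0.40) and Trim54 (0.40). This difference was negative in Trim45 (-0.44), Trim37 (-0.44) and Trim5 (-0.35). Trim45 and Trim37 were higher with BRD0476 at both times, but by less at 12 h, whereas Trim5 was lower at both times, and by more at 12 h. The calls of Trim3, Trim28 and Trim66 were each lost when any of 8 of the 12 arrays was left out, and those of Trim45 and Trim54 when any of 4 was. The smallest values were 0.85 for Trim3 and 0.61 for Trim28, both without the third cytokine and DMSO array at 12 h, 0.40 for Trim66, -0.33 for Trim45 and 0.33 for Trim54. With both cytokine and DMSO arrays numbered 3 left out, the values were 1.27 for Trim3, 0.91 for Trim28 and 1.08 for Trim46. Trim54 reads under the lower quartile throughout. Groups of 3 arrays are too small to test for outliers.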

How the results depend on the processing

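With 1 array left out in turn, the number of members called, gained calls included, was 19 to 22 with cytokines in DMSO at 6 h (22 with all arrays) and 16 to 19 at 12 h (18 with all arrays). With BRD0476 and cytokines it was 16 to 20 at 6 h (20 with all arrays) and 9 to 13 at 12 h (13 with all arrays). The shares of all genes called in these repeats are not given here. Of the members called with all arrays, 19 to 21 and 16 to 18 kept their cytokine call at 6 and 12 h, and 16 to 19 and 8 to 12 their BRD0476 call. The cytokine calls lost in some of these repeats were of Trim11, Trim28 and Trim39 at 6 h and of Trim33, Trim35 and Trim41 at 12 h. The BRD0476 calls lost were of Trim28, Trim32, Trim54, Trim59 and Trim62 at 6 h and of Trim8, Trim32, Trim41, Trim45 and Trim65 at 12 h, where all 5 went without the second cytokine and DMSO array. The totals were 8 to 9 and 7 to 12 for cytokines with BRD0476, 15 to 17 and 8 to 10 for the interactions, and 8 to 14 and 8 to 12 for the cytokine and BRD0476 time differences. For BRD0476 alone at 6 h it gave 0 to 1, against 2, and 0 to 1 for untreated 12 h against 6 h. Fitting only the arrays compared called 8 members with BRD0476 and cytokines at 12 h, against 13. All genes called also fell there, to 1310 higher and 1069 lower of 14217, from 2323 and 1504. With BRD0476 alone this fit called 0 members at 6 h (43 genes higher and 65 lower) and 2 at 12 h (434 and 489). Between untreated times it called 0 (14 genes higher and 83 lower). With BRD0476 alone at 12 h the main fit called 0 members. The intensity trend and robust prior called 1 (331 of all genes higher and 423 lower), and the mean of probe sets 1 (256 and 319). Centred arrays called 1 (333 and 343), and the fit with dim genes left out 2 (314 and 412 of 11979). Centring the arrays gave 1 with BRD0476 alone at 6 h (321 genes higher and 258 lower) and 0 between untreated times (69 and 166). The replicate block gave 0 in both (226 and 247 genes at 6 h, 56 and 158 between times). Deviations of same-numbered arrays had correlations of -0.478 to 0.722 (median -0.042), beside a median of 0.008 for other numbers. Of 24 arrays, 5 were closest to their own number, so no pairing by number was seen across the groups. Single pairs may still share a deviation: the cytokine and DMSO arrays numbered 3 were low at both times for Trim3, Trim46 and Trim28. The Trim46 difference with BRD0476 and cytokines at 12 h, -0.19 and not called, ran between -0.36 and 0.016 with 1 array left out. The cause of these changes was not tested. The other 178 counts stayed within 1.5 times, and of the repeats of Trim3, Trim5, Trim25, Trim26, Trim30d, Trim34, Trim37, Trim46 and Trim72 in these cytokine and BRD0476 comparisons, 494 kept direction and call, 9 gained a call and 1 turned sign. With both cytokine and DMSO arrays numbered 3 left out, chosen after seeing the data, 22 and 18 members were called with cytokines and 19 and 13 with BRD0476 and cytokines. Over all genes this setting called 3585 higher and 3908 lower with cytokines at 6 h, and 2632 and 4227 at 12 h. With BRD0476 and cytokines it called 3546 and 3029 at 6 h, and 2222 and 1579 at 12 h.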
